A study of Mus musculus with 151 samples.

Results

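The genes examined here are 10 genes best known from immune cells (Ighm, C1qa, C1qb, C1qc, Cd96, Ptprc, B2m, H2-K1, H2-D1 and Cd74), read in single hair cells picked by hand from the mouse cochlea. All 10 have a row among the 55291 genes of the count table. Ighm, C1qb and Cd96 were chosen because their counts differ between the cell groups, so their values are given as a description. The other 7 were listed for their function, to see whether transcripts of immune cells came along in the same cells.

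Each library was 1 cell, and 3 groups were used: 55 inner hair cells (IHCs) of postnatal day 14 (P14_WT IHCs), 50 IHCs of day 30 (P30_WT IHCs) and 46 cells called induced outer hair cells (P14_iOHCs) of day 14. All mice were C57BL/6 and carried 1 copy of vGlut3-P2A-iCreER, a tamoxifen-dependent Cre driven from the Slc17a8 locus, and of Ai9, a Cre-dependent Tdtomato reporter. The mice of the P14_iOHC group were also Tbx2 flox/-. Cre was thus meant to leave no intact copy of Tbx2, a transcription factor of IHCs, while the mice of both wild-type groups kept it. The paper had no Tbx2 antibody to check this loss and called it likely in induced outer hair cells. Tamoxifen was injected at P2 and P3, and only Tdtomato+ cells were picked. In the Tbx2 flox/- cochleae the smaller Tdtomato+ cells were taken and the larger ones left, so that cell size took part in the choice. No label names the mouse a cell came from. Each group was therefore treated as 1 sample: no test was made between groups, and intervals cover counting error only.

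Hair cells are sensory epithelial cells and are not of the blood lineage. Ighm encodes the constant part of the heavy chain of IgM, the first antibody class a B cell makes, and in B cells its transcript begins in a rearranged VDJ segment far upstream. C1qa, C1qb and C1qc encode the chains of C1q, the recognition part of the classical complement pathway, which macrophages and microglia make from all of these neighbouring genes together. Cd96 is a receptor of T and NK cells for nectin-type ligands, Ptprc (CD45) is a phosphatase on nearly all white blood cells, B2m pairs with the H2-K1 and H2-D1 heavy chains to form MHC class I on most nucleated cells, and Cd74 is the invariant chain of MHC class II.

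The positions are those of the mouse build GRCm38. Ighm lies at chr12:113418558-113422730 on the minus strand and its annotation holds constant-region exons alone. Its first 120 bases in the annotated transcript (chr12:113422611-113422730) are shown because they are the 5′ edge of what the Ighm counts can cover. Between Ighm and the nearest joining segment, Ighj4, lie 5783 bases with the 3 short genes Gm25747, Gm24022 and Gm22175, which are annotated as miRNAs, at gaps of 1914, 1988 and 2419 bases from Ighm. They are shown because their counts went with those of Ighm. The capitals mark the pentamer GAGCT, of which they hold 10, 9 and 10 copies. Tandem GAGCT repeats are the known hallmark of the mu switch region, through which transcripts that start upstream of it run.
Ighm, first 120 bases: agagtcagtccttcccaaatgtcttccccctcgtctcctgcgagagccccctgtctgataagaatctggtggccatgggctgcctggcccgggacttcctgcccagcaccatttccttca
Gm25747, chr12:113424645-113424722, minus strand: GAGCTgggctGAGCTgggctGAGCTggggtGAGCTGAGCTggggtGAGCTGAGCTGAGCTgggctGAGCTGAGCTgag
Gm24022, chr12:113424719-113424788, minus strand: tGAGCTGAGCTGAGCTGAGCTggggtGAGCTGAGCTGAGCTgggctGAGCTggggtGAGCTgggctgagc
Gm22175, chr12:113425150-113425227, minus strand: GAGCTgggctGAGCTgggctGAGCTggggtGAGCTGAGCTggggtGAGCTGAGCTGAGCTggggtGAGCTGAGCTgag

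The 3 C1q genes lie side by side on the minus strand of chromosome 4: C1qb at chr4:136880129-136886187, C1qc at chr4:136889804-136893065 and C1qa at chr4:136895917-136898803. Cd96 (chr16:46035657-46120251) and Ptprc (chr1:138062861-138175708) are on the minus strand, and B2m (chr2:122147686-122153083), H2-D1 (chr17:35262730-35267499) and Cd74 (chr18:60803848-60812652) are on the plus strand. H2-K1 (chr17:33996017-34000347) is on the minus strand. No 50-base window of the transcripts of Ighm, the C1q genes, Cd96, B2m or Cd74 occurs in a transcript of another gene. For H2-K1 and H2-D1, 9.63% and 12.8% of the windows do, mostly in other class I genes, so part of their counts may be shared with those copies.

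Counts are given as counts per 1000000 of the cell's total (CPM). The totals ran from 4326416 to 25035444 counts per cell and fell into a lower set of 51 cells (at most 10267217) and an upper set of 100 cells (at least 11814928). The lower set held 16 of the 55 P14_WT IHCs, 12 of the 46 P14_iOHCs and 23 of the 50 P30_WT IHCs. The picked cells carried the markers of their labels. Slc17a8, the vesicular glutamate transporter of IHCs, was at 470 to 2138 CPM (median 1191) in P14_WT IHCs, 387 to 2754 (median 1280) in P30_WT IHCs and 0 to 935 (median 34.6) in P14_iOHCs. Slc26a5, the motor protein of outer hair cells, was at 142 to 2787 CPM (median 1033) in P14_iOHCs and at most 4.01 CPM in a wild-type IHC. The targeted gene Tbx2 was at 49.5 to 754 CPM (median 240) in P14_WT IHCs, 3.29 to 420 (median 167) in P30_WT IHCs and 0 to 427 (median 41.4) in P14_iOHCs. Only exon 2 of Tbx2 was floxed, so counts over the whole gene do not by themselves show the deletion.

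**Figure D1:**
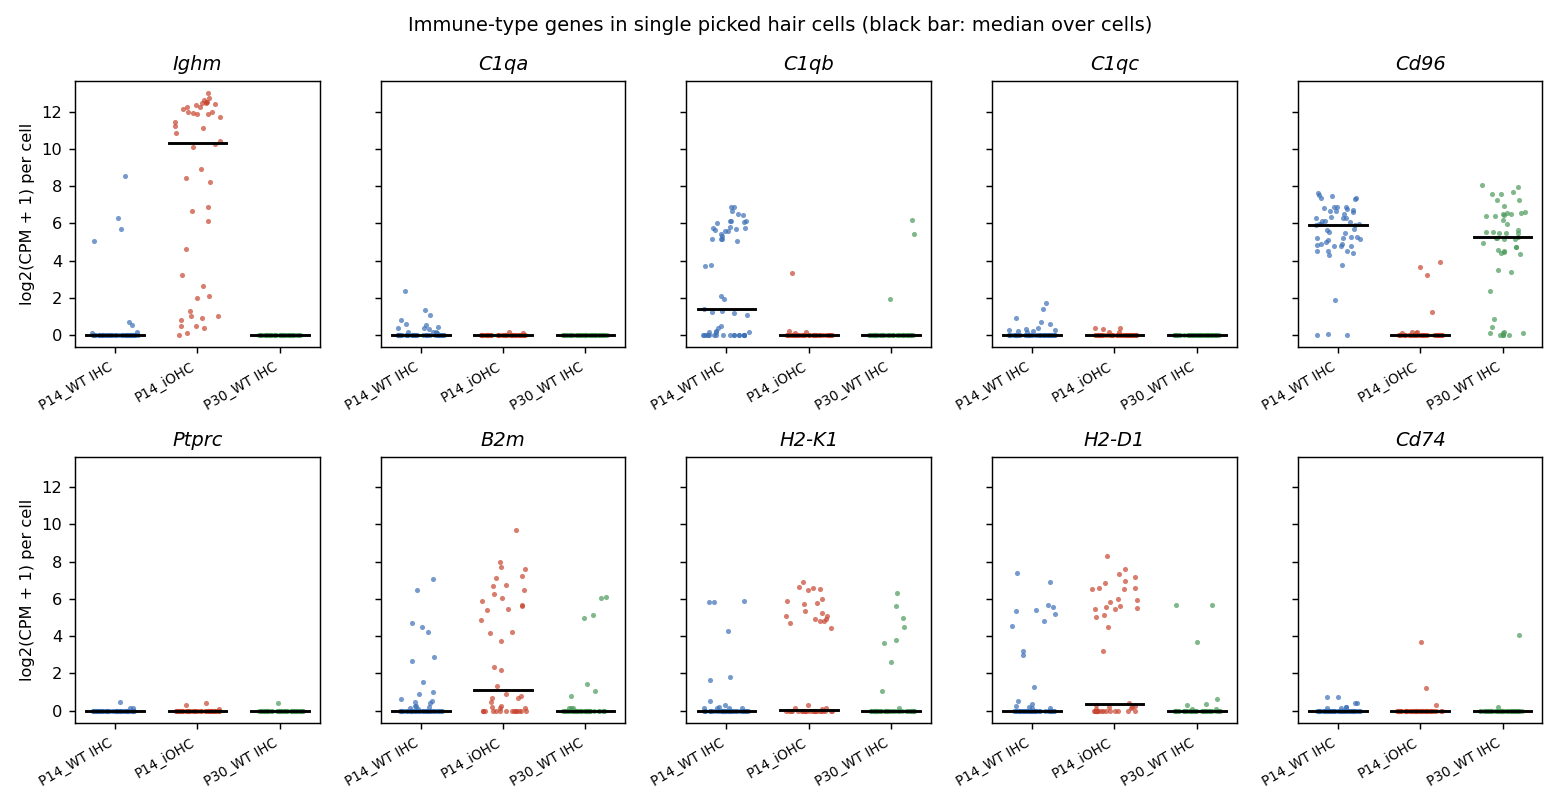
Levels of the 10 immune-type genes in each picked cell, as log2(CPM + 1), by group; points are cells and the black bar is the median over cells. Ighm is high in most P14_iOHCs, C1qb in part of the P14_WT IHCs and Cd96 in nearly all IHCs of both ages, while Ptprc, Cd74, C1qa and C1qc stay near 0 in most cells of the 3 groups.

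In P14_iOHCs Ighm was the most abundant of the 10 genes. The lowest, median and highest cell had 0, 1283 and 8129 CPM, and 45 of 46 cells had a count (97.8%, exact Clopper-Pearson 95% interval 88.5 to 99.9%). The cells were spread widely: 25 were over 1000 CPM, 5 lay between 100 and 1000, and 16 were at or under 100 CPM, 14 of these at or under 10. In P14_WT IHCs 8 of 55 cells had a count (14.5%, interval 6.50 to 26.7%), the median was 0, and only 4 cells had 10 or more counts. The highest of them, cell 16, had 365 CPM and held 53.2% of the group's Ighm counts, and the next had 75.8 CPM. No Ighm count was found in the 50 P30_WT IHCs, which allows a share of up to 7.11%. Thus 26 of the 46 P14_iOHCs were above every P14_WT IHC, and the other 20 overlapped with them.

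The summed counts came to 2306 CPM in P14_iOHCs (exact Poisson 95% interval 2303 to 2310) and 6.22 CPM in P14_WT IHCs (6.05 to 6.40), a 371-fold ratio, and 784-fold without P14_WT IHC 16. Per kilobase of exon, a scale on which genes can be compared, the mean of Ighm in P14_iOHCs was 1222 CPM per kb, against 373 for Slc26a5 in the same cells and 463 for Otof, the calcium sensor of IHC exocytosis, in P14_WT IHCs. By its mean, Ighm was thus above these hair cell genes, but not above all of them. Ocm, another hair cell gene, had a mean of 37457 CPM in P14_iOHCs, against 2305 CPM for Ighm. The pattern was present in both sets of library totals: Ighm was found in 11 of 12 and 34 of 34 P14_iOHCs, and in 3 of 16 and 5 of 39 P14_WT IHCs, of the lower and upper set.

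The genes that accompany Ighm in a B cell were nearly absent. Of the 40 P14_iOHCs with 10 or more Ighm counts, 36 had no count of Cd79a and Cd79b (the signalling chains of the B-cell receptor), Ms4a1 (CD20) or Igkc, the kappa light chain. Cd79a was counted in 3 of the 40 and each of Cd79b, Ms4a1 and Igkc in 1. Of a list of 15 B-lineage genes, Ebf1 was found in 55 of 55, 46 of 46 and 49 of 50 cells of the P14_WT IHC, P14_iOHC and P30_WT IHC groups, so it was left out of the next count. Without Ebf1, 26 of the 40 Ighm cells had none of these genes, 11 had 1 and 3 had 2. Mzb1, Vpreb3 and Jchain of the list reached means of at most 0.57, 2.37 and 1.27 CPM in any group. In P14_iOHCs Cd79b, from 1 cell, had a mean of 0.86 CPM and Cr2 of 0.84. The 2 B-lineage genes that could be compared with P14_WT IHCs did not pass a 4-fold ratio.

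The other immunoglobulin genes gave almost no counts. Of 12 constant-region genes 6 had no count in any of the 151 cells, the 3 lambda constant genes among them. Ighd, which B cells splice from the same primary transcript as Ighm, had counts in 3 P14_iOHCs (mean 0.35 CPM), and Ighe in 1. The 183 heavy-chain variable (Ighv) genes together had 2 counts in all P14_iOHCs, against 1635253 for Ighm, and the 4 Ighj genes had none in any cell. Light-chain variable genes came to 15 counts for kappa and 523 for lambda, the latter all from Iglv3 in 3 cells, and 3 of the 40 Ighm cells had 10 or more counts of any V or J segment. A read that spans 2 genes is left out under the usual counting mode, and the mode used was not stated, so these rows count only reads within 1 segment.

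The short genes before Ighm were counted in the same cells. Gm22175 had 400 counts in 21 P14_iOHCs, Gm24022 had 176 in 14 and Gm25747 had 47 in 11, and the highest single cell had 3.67, 2.58 and 0.63 CPM. The 3 together had 623 counts in 24 P14_iOHCs, none in P14_WT IHCs and 1 in P30_WT IHCs. Of the 40 P14_iOHCs with 10 or more Ighm counts 23 had such a count, and of the other 6 P14_iOHCs 1 had. The 4 P14_WT IHCs with 10 or more Ighm counts had none. All P14_WT IHCs together had 4923 Ighm counts, against 1635253 in P14_iOHCs, too few to read this absence as a difference. These counts are few, and 48.3% of the 50-base windows of Gm22175 and of Gm25747 occur in both, so reads between them are uncertain. Their level was at most 6.35 CPM, where Ighm reached 8129.

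Across the 46 P14_iOHCs, and among the 12517 other genes found in at least 20% of them, Gm22175 had the levels most like those of Ighm (Spearman rho 0.62 over 46 cells), before Smndc1 (0.60), Laptm5 (0.55), Gm24022 (0.52) and Mindy4b-ps (0.49). Laptm5, a lysosomal membrane protein of blood cells, was the highest of 20 macrophage genes listed in P14_iOHCs, while Cd68 was higher than it in both IHC groups. It was at 0, 9.91 and 681 CPM in the lowest, median and highest P14_iOHC and was found in 30 of 46, against 13 of 55 P14_WT IHCs (mean 4.75 CPM) and 4 of 50 P30_WT IHCs (2.14). Its summed level in P14_iOHCs was 20.6-fold that of P14_WT IHCs. The rho of Ighm with Laptm5 was 0.46 in the 12 lower-set and 0.57 in the 34 upper-set cells.

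The rho of Ighm with Slc26a5 was 0.11, with Slc17a8 -0.02 and with Tbx2 -0.38 (-0.54 and -0.34 in the lower and upper set). With the number of detected genes, the total count and a score of 18 supporting-cell genes it was -0.02, -0.00 and 0.02. Over all 151 cells the genes most like Ighm were Hsd11b1, Lrrc30, Slc26a5, Lbh and Fam57b (rho 0.83 to 0.85), which were likewise found in 44 to 46 of the 46 P14_iOHCs and in at most 13 of the cells of either wild-type group. Those rho values come mainly from the split between the groups.

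**Figure D2:**
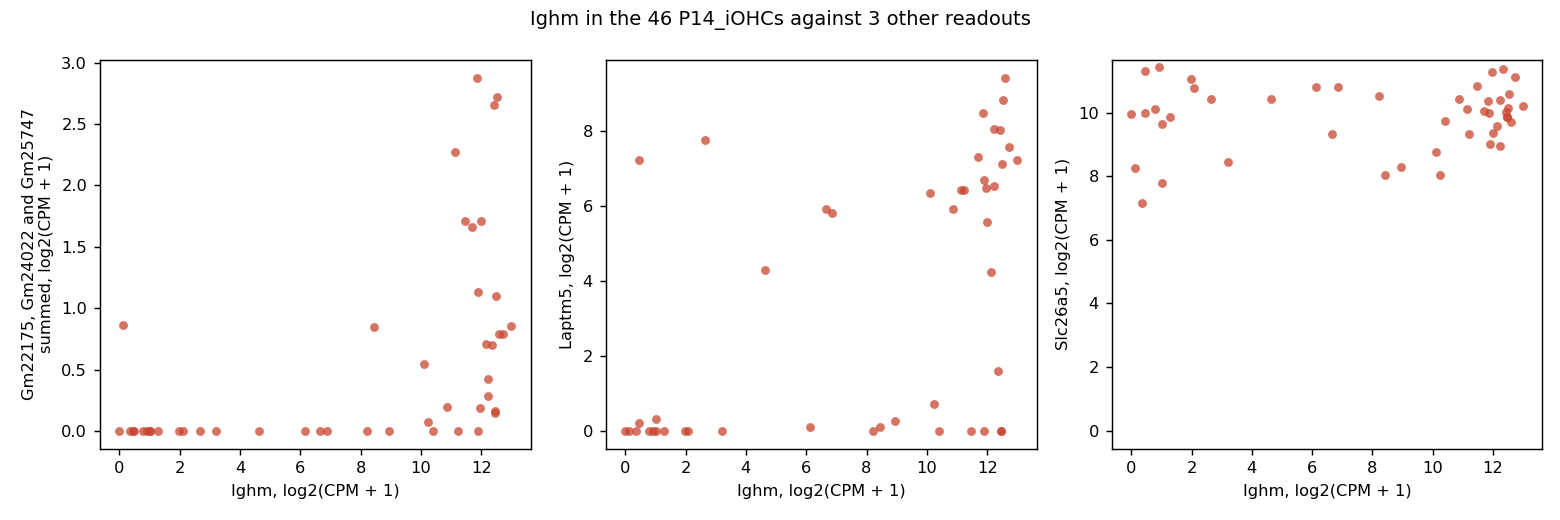
Ighm in the 46 P14_iOHCs (x axis, log2(CPM + 1)) against the summed level of Gm22175, Gm24022 and Gm25747, Laptm5 and Slc26a5 (y axes, log2(CPM + 1)); each point is a cell. Counts of the 3 short genes sit almost only in cells of high Ighm, Laptm5 is found with high Ighm more often than with low, and Slc26a5 is high at every Ighm level.

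C1qb was found in part of the P14_WT IHCs. The lowest, median and highest cell had 0, 1.65 and 118 CPM, and 38 of 55 cells had a count (69.1%, interval 55.2 to 80.9%). Of the 55 cells, 25 were over 10 CPM and 30 were at or under it. In P14_iOHCs 4 of 46 cells had a count (8.70%, interval 2.42 to 20.8%), with a median of 0 and a highest of 9.21 CPM, and in P30_WT IHCs 3 of 50 did (6.00%, interval 1.25 to 16.5%), with a highest of 72.4 CPM. The 25 P14_WT IHCs over 10 CPM were above every P14_iOHC, while 5 P14_WT IHCs were above every P30_WT IHC.

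The summed level of C1qb was 24.9 CPM in P14_WT IHCs (Poisson interval 24.6 to 25.3), 0.13 in P14_iOHCs (0.10 to 0.16) and 2.85 in P30_WT IHCs (2.72 to 2.98). That is a 197-fold and an 8.77-fold lower level than in P14_WT IHCs, and both comparisons use the same P14_WT IHCs. One cell set each of these ratios: without P14_iOHC 5, with 94.4% of its group's counts, the ratio was 3492-fold, and without P30_WT IHC 38 it was 22.2-fold. The P14_iOHCs with C1qb counts were the consecutive cells 5, 6, 7 and 8, with 85, 2, 2 and 1 counts. These had counts of 14, 9, 11 and 8 of the 20 macrophage genes listed, against at most 4 in any other P14_iOHC. Cell 5 also had counts of C1qa, C1qc, Ptprc and Cd74. In the lower and upper set of totals, C1qb was counted in 9 of 16 and 29 of 39 P14_WT IHCs.

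The companion chains did not follow C1qb. C1qa had a count in 14 of 55 P14_WT IHCs (25.5%, interval 14.7 to 39%) and C1qc in 12 (21.8%, interval 11.8 to 35%), with medians of 0 and highest values of 4.11 and 2.30 CPM. Per kilobase of exon the means were 24.3 CPM per kb for C1qb, 0.18 for C1qa and 0.07 for C1qc. In P14_iOHCs C1qa was counted in 2 and C1qc in 5 of 46 cells, at no more than 4 counts a cell, and neither was counted in the 50 P30_WT IHCs. Of the 32 P14_WT IHCs with 10 or more C1qb counts, 22 had no count of C1qa or C1qc and 7 had both. The rho of C1qb over the 55 cells was 0.03 with C1qa and 0.03 with C1qc, whereas that of C1qa with C1qc was 0.68.

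Low counts of macrophage genes were found in the cells with C1qa or C1qc. Of the 17 P14_WT IHCs with C1qa or C1qc counts, Tyrobp (an adaptor of myeloid receptors) was counted in 12 and Csf1r (the macrophage growth factor receptor) in 12. Trem2 was counted in 10 of them, Cx3cr1 in 7, Fcer1g in 6 and Aif1 in 4. In the 22 cells with 10 or more C1qb counts but none of C1qa or C1qc, Tyrobp, Trem2 and Cx3cr1 were counted in none. Csf1r was counted in 2 of these 22, Fcer1g in 3 and Aif1 in 2. Laptm5 did not follow this split: P14_WT IHC 1, without C1qa or C1qc, held 648 of the group's 3009 Laptm5 counts. These 17 cells were nearly 1 run of numbers in the labels, P14_WT IHC 35 to 52 without cell 51, and none of the other 37 P14_WT IHCs had a count of C1qa or C1qc. The labels do not say what the numbers stand for. The lower set of totals was P14_WT IHC 1 to 16, so the upper-set cells outside the run had none either. C1qb was found inside and outside the run: it was counted in 16 of its 18 cells (15.6 CPM by summed counts) and in 22 of the other 37 (30.6 CPM), and against these 37 alone its level was 241-fold lower in P14_iOHCs and 10.8-fold lower in P30_WT IHCs. Tyrobp was counted in 12 of the 18 and in 1 of the 37. Csf1r was counted in 12 and 3 of these, but by summed counts it was at 0.25 CPM in the run and 0.44 outside it. Tyrobp had a mean of 0.11 CPM and a highest value of 1.64 CPM over the P14_WT IHCs. The summed level of the 20 macrophage genes was 0 to 97.4 CPM (median 2.56) in P14_WT IHCs, 0 to 681 (median 50.5) in P14_iOHCs, where Laptm5 made up most of it, and 0 to 173 (median 0.09) in P30_WT IHCs. In P14_WT IHCs, P14_iOHCs and P30_WT IHCs, 1, 2 and 5 of the 20 had no count, Tyrobp and Cx3cr1 among the 5 in P30_WT IHCs and Trem2 among the 2 in P14_iOHCs. Cd68 and Cd163, the other abundant genes of that list, had means of 5.71 and 2.08 CPM in P14_WT IHCs. Of the 4 macrophage genes that could be compared between P14_iOHCs and P14_WT IHCs, Laptm5 and Csf1r were more than 4-fold higher in P14_iOHCs. Of all genes compared 8.86% were. The median log2 ratio of the 4 genes was 1.85, against 0.09 over all genes compared. Csf1r was counted in 4 of 46 P14_iOHCs and 15 of 55 P14_WT IHCs, and P14_iOHC 19 held 1138 of its 1198 counts in that group. Without this cell Csf1r was 4.30-fold lower in P14_iOHCs.

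**Figure D3:**
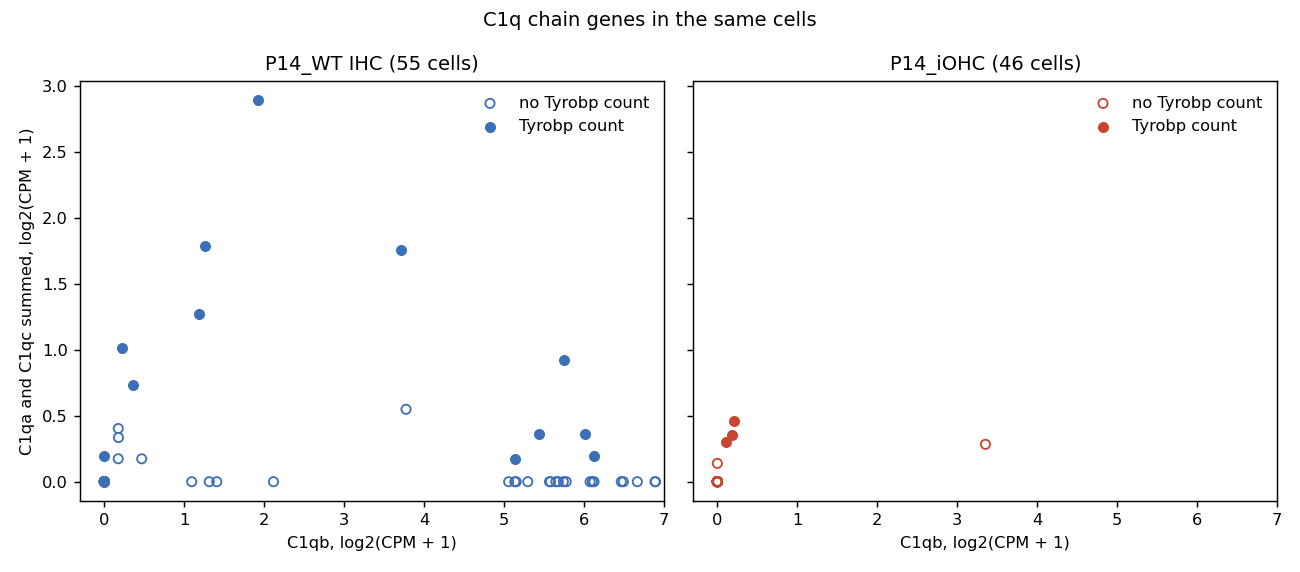
C1qb (x axis) against the sum of C1qa and C1qc (y axis), both as log2(CPM + 1), in each P14_WT IHC and P14_iOHC; filled points had a count of Tyrobp. A line of P14_WT IHCs with C1qb up to 118 CPM lies at 0 for both companion chains, and the cells highest in C1qa and C1qc are lower in C1qb.

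Ephb2, the next gene on the other side of C1qb at 44140 bases, had 2 counts in all P14_WT IHCs. The genes most like C1qb over the 151 cells were Rprm, Slc34a3, Ang4, Ear-ps5 and Trim45 (rho 0.52 to 0.58), and within the 55 P14_WT IHCs 3110045C21Rik, Cpd, Porcn and Elavl1 were among the 5 most like it (rho 0.45 to 0.46). Rprm, an inhibitor of the cell cycle, had a mean of 585 CPM in P14_WT IHCs, 3.28 in P14_iOHCs and 4.25 in P30_WT IHCs. Within the P14_WT IHCs the rho of C1qb with Slc17a8 was 0.08, with Tbx2 0.02 and with the total count -0.06.

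Of the 22 complement genes listed, 8 could be compared between P14_iOHCs and P14_WT IHCs. C2 and Clu were more than 4-fold higher and C1qb, chosen for its pattern, was lower, where 8.86% and 5.16% of all genes compared were. The median log2 ratio of the 8 was 0.67, against 0.09 over all genes compared. C2 was 3.46-fold higher without P14_iOHC 3 and 54.9-fold higher without P14_WT IHC 45. It was counted in 10 P14_iOHCs and 3 P14_WT IHCs, and could not reach the limit of 10 cells without the former. Clu (clusterin, an inhibitor of the terminal complement complex and a gene of many epithelia) had a mean of 1360 CPM (SD 2882 over cells) in P14_iOHCs, 182 (SD 238) in P14_WT IHCs and 125 (SD 184) in P30_WT IHCs. In P14_iOHCs its rho with the supporting-cell score was 0.85. C1ra and C1s1, the proteases that join C1q, had no count in cells of day 14. C1qbp and Cd59a, by their mean over all cells among the abundant genes of the list, differed by less than 1.5-fold between the groups of day 14.

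Cd96 was an IHC transcript at both ages. The lowest, median and highest P14_WT IHC had 0, 58.2 and 194 CPM, the P30_WT IHCs 0, 37.3 and 264 CPM, and the P14_iOHCs 0, 0 and 14.3 CPM. A count was found in 53 of 55 (96.4%, interval 87.5 to 99.6%), 46 of 50 (92.0%, interval 80.8 to 97.8%) and 8 of 46 cells (17.4%, interval 7.82 to 31.4%). Of the P14_WT IHCs, 50 were above every P14_iOHC, while the IHCs of both ages overlapped almost wholly. The means were 66.0 ± 49.9 CPM (SD over cells, n = 55) at P14 and 60.7 ± 67.0 (n = 50) at P30. The summed levels, 63.0 and 57.7 CPM, were 1.09-fold apart, and the summed level in P14_iOHCs, 0.73 CPM (0.67 to 0.80), was 86.0-fold lower than in P14_WT IHCs. P14_iOHC 29 held 36.5% of that group's Cd96 counts. In the lower and upper set, 2 of 12 and 6 of 34 P14_iOHCs had a count.

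T and NK cell genes were nearly absent beside Cd96. None of the 52 P14_WT IHCs with 10 or more Cd96 counts had a count of the CD3 chain genes Cd3d, Cd3e and Cd3g or of Trbc1 and Trbc2, the constant parts of the T-cell receptor beta chain, and 2 of the 41 such P30_WT IHCs did. Of the 20 T and NK genes listed, 41 of the 52 P14_WT IHCs had none and 11 had 1, while of the 41 P30_WT IHCs 27 had none, 9 had 1, 3 had 2 and the highest cell had 7. Cd247, Cd5 and Trac, the highest of the list, had means of at most 0.39 CPM in any group, and none of the list had enough counts to be compared between groups. Ptprc was counted in 3 of the 52.

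Known ligands of CD96 belong to the nectin family. A list of 7 genes held Pvr, Nectin1, Nectin2 and Nectin3, the T and NK genes Cd226 and Tigit, and Cd96 itself. It was thus not a list of ligands alone. Of the 7, 5 could be compared in each comparison. Nectin2 had a mean of 138 ± 101 CPM in P14_WT IHCs, 80.8 ± 80.7 in P14_iOHCs and 56.2 ± 51.5 in P30_WT IHCs (SD over cells), and Nectin3 had 37.5 ± 47.6, 30.6 ± 48 and 49.2 ± 57.1. Only Cd96 passed the 4-fold ratio between the groups of day 14, and Pvr, at a mean of 5.55 CPM in P14_WT IHCs and 1.17 in P30_WT IHCs, was 6.85-fold lower at P30. Cd226 had no count in any cell.

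Over the 151 cells Pgm2l1, Dnm1, Gm10605 and Calb2 were among the 5 genes most like Cd96 (rho 0.64 to 0.67). Calb2 encodes a calcium-binding protein. Within the 55 P14_WT IHCs the genes most like it were Ccdc93, Peak1, Dock9, Mlh3 and 2900076A07Rik (rho 0.46 to 0.51). The rho of Cd96 with the total count was -0.17 in P14_WT IHCs and 0.04 in P30_WT IHCs. Of the genes beside Cd96 on the same strand, Gm4737 had means of 0.54, 0.26 and 0.81 CPM in P14_WT IHCs, P14_iOHCs and P30_WT IHCs, and the snRNA gene Gm24754 had counts in 1 cell. Plcxd2, the protein-coding gene beyond Gm24754 on the same strand, had means of 227 ± 147, 80.0 ± 96.1 and 139 ± 127 CPM (SD over cells) and was 2.99-fold lower in P14_iOHCs and 1.79-fold lower in P30_WT IHCs than in P14_WT IHCs, by summed counts. Cd96 and Plcxd2 were thus both lower in P14_iOHCs.

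Ptprc, the general marker of white blood cells, had 12 counts in 3 P14_WT IHCs, 8 in 3 P14_iOHCs and 3 in 1 P30_WT IHC, at no more than 0.375 CPM in a cell. This is 5.45% (interval 1.14 to 15.1%), 6.52% (1.37 to 17.9%) and 2.00% (0.05 to 10.6%) of the cells. The 3 P14_WT IHCs with Ptprc also had C1qa or C1qc counts and lay in the run of cells 35 to 52. Of the 40 P14_iOHCs with 10 or more Ighm counts 3 had a Ptprc count.

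Cd74 was found in 8 of 55 P14_WT IHCs (14.5%, interval 6.50 to 26.7%) at no more than 0.69 CPM, and all 8 had C1qa or C1qc counts and lay in the same run. In P14_iOHCs it was found in 3 of 46 cells (6.52%) and in P30_WT IHCs in 2 of 50 (4.00%), where 1 cell with 12.1 and 1 with 15.5 CPM held 93.9% and 99.3% of the counts. Of 12 MHC class II genes, 3 could be compared between P14_iOHCs and P14_WT IHCs, and H2-DMb1, at means of 9.67 and 1.66 CPM, was 4.95-fold higher in P14_iOHCs, and 8.77-fold without P14_WT IHC 50. H2-DMb1 was counted in 3 P14_WT IHCs and 14 P14_iOHCs, and could not reach the limit of 10 cells without the latter. H2-DMa and Ciita, the other abundant genes of that list, had means of at most 7.37 and 1.18 CPM in any group. H2-Aa and H2-Ab1, the chains of the class II molecule itself, had means of at most 0.02 CPM in each group.

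**Figure D4:**
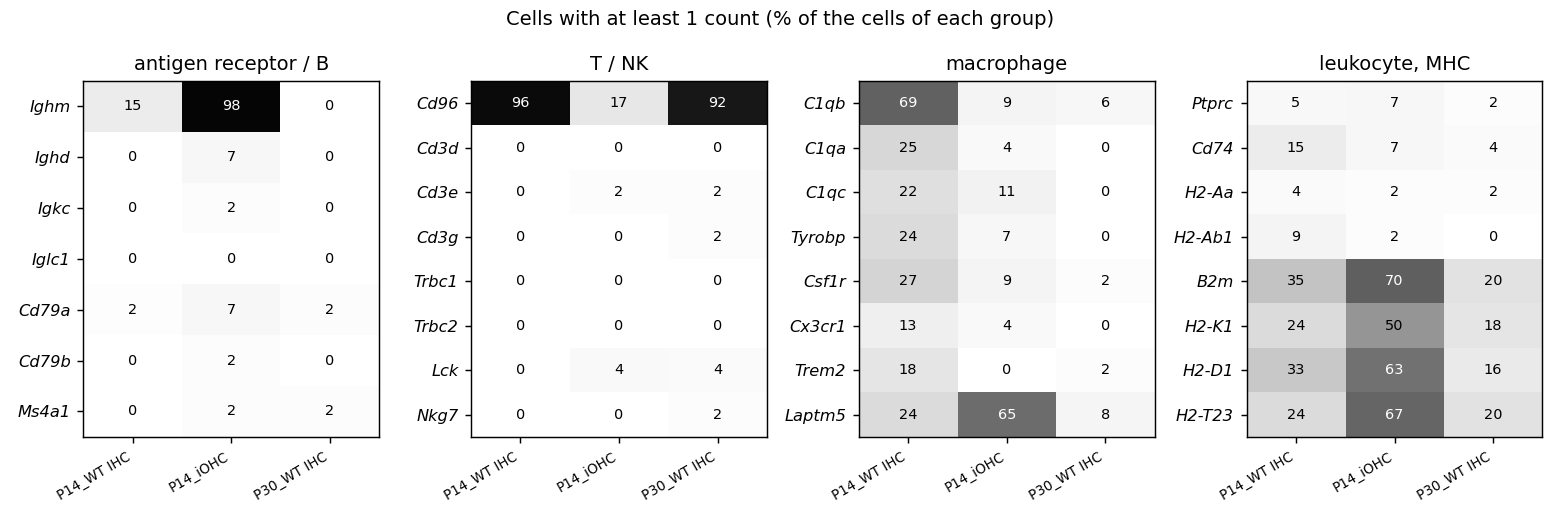
Share of cells with at least 1 count (numbers and shading, % of the cells of each group) for the immune-type genes and defining markers of B cells, T and NK cells, macrophages and MHC expression. Ighm at 98% of P14_iOHCs and Cd96 at 96% and 92% of the IHCs stand beside B-cell and T-cell markers at 0 to 7%, whereas B2m, H2-K1, H2-D1 and H2-T23 are highest together in P14_iOHCs.

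The genes of MHC class I were found in more P14_iOHCs than IHCs. The lowest, median and highest P14_iOHC had 0, 1.17 and 838 CPM of B2m, the P14_WT IHCs 0, 0 and 135, and the P30_WT IHCs 0, 0 and 68.7. B2m was counted in 32 of 46 P14_iOHCs (69.6%, interval 54.2 to 82.3%), 19 of 55 P14_WT IHCs (34.5%, interval 22.2 to 48.6%) and 10 of 50 P30_WT IHCs (20.0%, interval 10.0 to 33.7%). The groups overlapped: 6 of the 46 P14_iOHCs were above every P14_WT IHC. The mean was 55.5 ± 133 CPM in P14_iOHCs, 5.58 ± 21.9 in P14_WT IHCs and 4.07 ± 14.6 in P30_WT IHCs (SD over cells).

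H2-K1 was at 0, 0.02 and 119 CPM in the lowest, median and highest P14_iOHC, with a count in 23 of 46 (interval 34.9 to 65.1%). It was counted in 13 of 55 P14_WT IHCs (23.6%, highest 58.5 CPM) and 9 of 50 P30_WT IHCs (18%, highest 78.7 CPM). Of the P14_iOHCs 19 were over 10 CPM and the other 27 at or under 1 CPM. H2-D1 was at 0, 0.28 and 312 CPM in the lowest, median and highest P14_iOHC, with a count in 29 of 46 (63.0%, interval 47.5 to 76.8%). It was counted in 18 of 55 P14_WT IHCs (32.7%, highest 165 CPM) and 8 of 50 P30_WT IHCs (16%, highest 50.3 CPM). So the heavy chains, like B2m, were high in part of the cells and near 0 in the rest, and 7 and 2 P14_iOHCs were above every P14_WT IHC in H2-K1 and H2-D1.

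By summed counts, B2m was at 61.7 CPM in P14_iOHCs (61.1 to 62.3) and 7.28 in P14_WT IHCs (7.09 to 7.47), 8.48-fold higher in the former. Single cells weighed on it: P14_iOHC 43 held 36.2% and P14_WT IHC 54 49.5% of their groups' counts, and the ratio was 5.56-fold without the first and 16.3-fold without the second. H2-K1 was at 22.9 (22.6 to 23.3) and 4.20 CPM (4.06 to 4.34), 5.46-fold higher. H2-D1 was at 43.1 (42.6 to 43.6) and 12.2 CPM (12.0 to 12.5), 3.53-fold higher and not past the 4-fold ratio, but 4.75-fold higher without P14_WT IHC 23.

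Of the 10 genes, 6 had at least 5 counts in at least 10 cells of the groups of day 14. Ighm, B2m and H2-K1 were more than 4-fold higher in P14_iOHCs and C1qb and Cd96 more than 4-fold lower, where 8.86% and 5.16% of all 13673 genes compared were. Ighm and H2-K1 reached the limit of 10 cells through P14_iOHCs, and C1qb and Cd96 through P14_WT IHCs. Only B2m of these 5 reached it in each group alone, with 14 P14_WT IHCs and 28 P14_iOHCs. As 3 of these 5 had also been chosen for the pattern, no more is read from the count. Between P30_WT and P14_WT IHCs 5 of the 10 could be compared: none was more than 4-fold higher and C1qb and H2-D1 were lower, against 2.71% and 3.29% of 12946 genes. C1qb and H2-D1 reached the limit of 10 cells through P14_WT IHCs.

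In P30_WT IHCs the summed levels were 3.43 CPM for B2m, 5.22 for H2-K1 and 1.67 for H2-D1, that is 2.12-fold lower, 1.24-fold higher and 7.30-fold lower than in P14_WT IHCs. The B2m ratio was 1.10-fold without P14_WT IHC 54, the H2-K1 ratio turned to 1.24-fold lower without P30_WT IHC 41, and the H2-D1 ratio was 11.7-fold without P30_WT IHC 18.

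The MHC class I genes differed between the sets of library totals. None of the 16 lower-set P14_WT IHCs had a count of B2m or H2-D1, where 19 and 18 of the 39 upper-set cells did. Within the run of P14_WT IHC 35 to 52, B2m was counted in 13 and H2-D1 in 12 of 18 cells, against 6 and 6 of the other 37. By summed counts B2m was at 2.02 CPM in the run and 10.5 outside it, and H2-D1 at 15.8 and 10.0. Against the cells outside the run alone, B2m was 5.89-fold, H2-K1 4.67-fold and H2-D1 4.29-fold higher in P14_iOHCs. In the upper set the P14_iOHCs had 68.1 CPM of B2m, against 8.60 CPM in P14_WT IHCs. H2-K1 had 23.8 against 4.93 CPM there, and H2-D1 43.7 against 14.4. In the lower set the values were 24.1 against 0, 17.5 against 0.18 and 39.2 against 0 CPM for B2m, H2-K1 and H2-D1. They rested on 6, 4 and 8 of 12 P14_iOHCs and on 0, 1 and 0 of 16 P14_WT IHCs. These are under the limit of 10 cells, so the lower set could not be used to compare these genes. For the IHCs of both ages, H2-D1 in the upper set was at 0.42 CPM in P30_WT IHCs against 14.4 in P14_WT IHCs. In the lower set it was at 4.96 against 0 CPM, from 5 of 23 and 0 of 16 cells, likewise too few to be compared.

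The class I genes were often high in the same P14_iOHCs. Of B2m, H2-K1, H2-D1 and H2-T23, a non-classical class I gene, all 4 had 10 or more counts in 11 of 46 P14_iOHCs, 1 of 55 P14_WT IHCs and 0 of 50 P30_WT IHCs, and none of the 4 had in 11, 29 and 32 cells. Of the 26 P14_iOHCs with 10 or more counts of H2-K1 or H2-D1, 20 also had 10 or more of B2m, against 5 of 16 such P14_WT IHCs and 2 of 9 P30_WT IHCs. Over the 46 P14_iOHCs the rho of B2m was 0.39 with H2-K1, 0.36 with H2-D1 and 0.52 with H2-T23. That of H2-K1 with H2-D1 was 0.43, and the part of shared windows in it was not tested.

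B2m and H2-K1 were read beside their promoters because B2m and the class I heavy chains were higher in the same group. The 240 bases from 250 to 11 bases before the RefSeq start (build GRCm38.p6) are shown. The capitals mark a match to the core of the interferon-stimulated response element, searched as GAAA, any 2 bases and GAAA, or to a kappa B motif, searched as GGGG, ATT and CCCC in a row. Both strands were searched, and the motifs do not overlap each other in these windows. The first stood in B2m at -139 to -130 and occurred in 2.87% of the 32851 promoter windows of this length. The second stood in H2-K1 at -111 to -101 and in H2-D1 at -171 to -161, and occurred in 9 of the windows. A match says only that these letters are there. A missing match says only that these exact letters are not, as variant forms of the motifs were not searched.
B2m, chr2:122147437-122147676, plus strand: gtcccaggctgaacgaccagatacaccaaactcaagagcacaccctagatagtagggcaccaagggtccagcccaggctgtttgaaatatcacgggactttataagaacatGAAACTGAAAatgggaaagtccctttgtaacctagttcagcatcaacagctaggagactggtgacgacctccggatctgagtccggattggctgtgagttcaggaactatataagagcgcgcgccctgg
H2-K1, chr17:34000358-34000597, minus strand: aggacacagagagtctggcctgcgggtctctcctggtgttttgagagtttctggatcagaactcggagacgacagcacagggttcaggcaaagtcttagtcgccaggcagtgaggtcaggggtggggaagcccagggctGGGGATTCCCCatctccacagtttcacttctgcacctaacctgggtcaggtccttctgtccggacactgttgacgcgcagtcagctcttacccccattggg

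Of 23 genes of MHC class I and antigen processing, 14 could be compared between the groups of day 14. The 5 over 4-fold higher in P14_iOHCs were B2m, H2-K1, H2-T23 (4.32-fold, means 35.1 and 7.56 CPM), Psme1, a proteasome activator subunit (16.6-fold, means 12.6 and 0.75 CPM), and Erap1, which trims peptides (8.82-fold, means 8.62 and 1.28 CPM). None was more than 4-fold lower. Psme1 was counted in 7 and Erap1 in 6 P14_WT IHCs, so neither could reach the limit of 10 cells without P14_iOHCs. Of all genes compared 8.86% were more than 4-fold higher. The median log2 ratio of the 14 was 1.09, against 0.09 over all genes compared. Without P14_iOHC 17 H2-T23 was 3.72-fold higher, without P14_WT IHC 45 Psme1 119-fold, and without P14_WT IHC 55 Erap1 22.3-fold. Calr, Canx and Pdia3, chaperones of the endoplasmic reticulum and the highest of the list, differed by at most 1.64-fold. Tap1 and Tap2, the peptide transporter, had no count in P14_WT IHCs and were counted in 11 and 6 P14_iOHCs (means 4.62 and 1.89 CPM). Between P30_WT and P14_WT IHCs, of 12 compared, H2-D1 was the 1 past the limit.

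Of 20 interferon-response genes, 8 could be compared and 5 were more than 4-fold higher in P14_iOHCs, with a median log2 ratio of 2.14, against 8.86% of all genes compared and a median of 0.09. Ifit1 had a mean of 127 ± 139 CPM and was counted in 39 of 46 P14_iOHCs, against 23.4 ± 50.8 CPM and 17 of 55 P14_WT IHCs and 47.5 ± 81.1 CPM and 33 of 50 P30_WT IHCs. Ifi27 (14.1-fold), Ifi35 (6.59-fold), Usp18 (4.76-fold) and Irf9 (4.07-fold) were the others. Ifi27 and Ifi35 were each counted in 4 P14_WT IHCs, against 18 and 17 P14_iOHCs. They could thus not reach the limit of 10 cells without P14_iOHCs. Without their highest P14_iOHC, Usp18 was 3.81-fold and Irf9 3.66-fold higher, and Ifi27 was 6.76-fold higher without P14_iOHC 28. Stat2 had means of 8.06 CPM in P14_iOHCs and 25.7 in P14_WT IHCs, 2.57-fold lower, and Isg15 had at most 0.35 CPM in any group. The rho of Ighm with Ifit1 in P14_iOHCs was 0.48. None of the 6 that could be compared between P30_WT and P14_WT IHCs passed 4-fold.

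Markers of supporting cells, the neighbours of hair cells, were higher in P14_iOHCs as well. Of 18 supporting-cell genes 14 could be compared, 10 were more than 4-fold higher in P14_iOHCs and none lower, with a median log2 ratio of 2.61, where 8.86% of all genes were higher and the median was 0.09. Gjb6, a connexin of supporting cells, had a mean of 607 CPM in P14_iOHCs, 87.6 in P14_WT IHCs and 57.2 in P30_WT IHCs, Tectb had 533, 35.2 and 10.2 CPM, and S100a1, which every cell had, was at 7868, 1881 and 2986 CPM. S100a1 made up most of the summed level of the list, with 77.3%, 88.2% and 94.0% of it in P14_iOHCs, P14_WT IHCs and P30_WT IHCs. The summed level was 2661 to 25285 CPM (median 8563) in P14_iOHCs, 653 to 6873 (median 1785) in P14_WT IHCs and 645 to 7151 (median 2831) in P30_WT IHCs. Without S100a1 the other 17 genes summed to 0 to 10529 CPM (median 915), 0 to 2153 (median 16.8) and 0 to 824 (median 33.7). Of the list Prox1 had no count in the groups of day 14 and Epyc none in P30_WT IHCs. Epyc and Bace2, for example, were each counted in 3 P14_WT IHCs, and could not reach the limit of 10 cells without P14_iOHCs. Over the 46 P14_iOHCs the rho of B2m with the supporting-cell score was 0.67 (0.67 and 0.63 in the lower and upper set) and with the number of detected genes 0.63. For H2-K1 these were 0.17 and 0.33, for H2-D1 0.19 and 0.26, and for H2-T23 0.42 and 0.38. The part of these markers in the class I and interferon-response values was not tested.

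**Figure D5:**
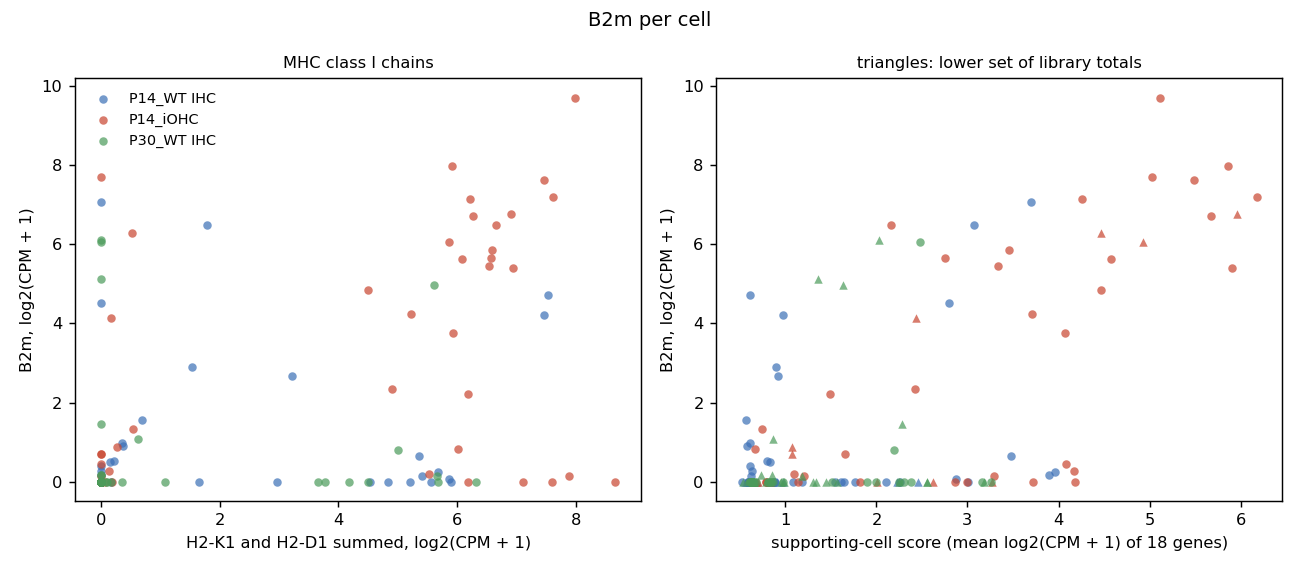
B2m per cell (y axes, log2(CPM + 1)) against the sum of H2-K1 and H2-D1 (left, log2(CPM + 1)) and against the supporting-cell score, the mean log2(CPM + 1) of 18 genes (right), with colours for the groups and triangles for cells of the lower set of library totals. High B2m is found mostly in P14_iOHCs with high heavy chains and a high score, and some P14_iOHCs with high heavy chains lie near 0 for B2m.

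Of the genes of the 15 lists with enough counts to be compared between P30_WT and P14_WT IHCs, none was more than 4-fold higher. Over all genes compared, 2.71% were higher and 3.29% lower by that limit. Lower by more than 4-fold among the list genes were Ctss, a protease of the macrophage and MHC class II lists, the haemoglobin genes Hba-a1 and Hbb-bs, Tectb of the supporting-cell list, and C1qb, H2-D1 and Pvr, given above. Without P14_WT IHC 54, Hba-a1, Hbb-bs and Tectb were 1.40-fold, 2.94-fold and 2.47-fold lower and no longer past the limit. The Pvr ratio was 38.8-fold without P30_WT IHC 18.

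Other cell types were checked on the same scale. Of 10 granulocyte and mast cell genes, 7 had no count in P14_WT IHCs and 5 in each other group, and Kit, the highest at a mean of 17.3 CPM in P14_WT IHCs, was at 15.5 in P14_iOHCs. Of 8 endothelial and pericyte genes, 5, 4 and 1 had no count in P14_WT IHCs, P14_iOHCs and P30_WT IHCs, and Pecam1 alone was compared between the groups of day 14 (4.15-fold lower in P14_iOHCs, at means of 0.54 and 4.03 CPM, and 3.09-fold without P14_WT IHC 1). All 5 blood genes were counted in every group, with summed levels of up to 257, 496 and 64.6 CPM in a cell and medians of 0, 0 and 7.10 CPM. Of 7 fibroblast genes, Lum was 5.85-fold higher in P14_iOHCs (means 339 and 49.1 CPM), and its part in the results was not tested. Of 10 hair cell genes, Slc26a5, Ikzf2 and Ocm were more than 4-fold higher and Otof and Slc17a8 lower in P14_iOHCs, where 8.86% and 5.16% of all genes were. All 40 P14_iOHCs with 10 or more Ighm counts had Slc26a5 counts and 39 had Ikzf2 counts.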

How the data were processed

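Tdtomato+ cells were picked by hand and their libraries made with a Smart-Seq HT kit, and 151 libraries of 1 cell each were analysed. The authors deposited raw counts per gene for all cells. The submitters' notes name Trimmomatic 0.39, FastQC 0.11.9, HISAT2 2.1.0, HTSeq 0.10.0 and StringTie 1.3.5 with the mouse build GRCm38, and the annotation release, the use of strand and the handling of reads with several positions are not given in the sources used here. The kit adds no molecular identifiers, so counts are reads after amplification and not molecules. All columns were matched to a sample by their labels (0 unmatched), and no 2 cells had the same values.

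Counts were divided by the cell's total and multiplied by 1000000 (CPM). Group levels are the summed counts over the summed totals, with exact Poisson intervals, and shares of cells have exact Clopper-Pearson intervals (95%). A ratio was taken where 10 or more cells of the groups compared had 5 or more counts of the gene. A group under 3 summed counts was set to 3, and a gene over 4-fold was counted. A gene could thus pass through the group where it was high, a limit that the counts and medians of the lists carry. A label of a cell names no mouse, so each group was 1 sample and no p-value was computed, although the table holds counts. The procedure was tested on simulated data in which only abundant genes were changed, so the test does not show how ratios of sparse genes behave. Both comparisons share the P14_WT IHCs. Spearman rho across cells is a description, since cells of a group share mice and preparation. Gene positions, exon lengths and transcript sequences are those of GENCODE M21, and promoters those of RefSeq, which held 7 of the 10 genes.

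The 10 genes and 15 lists of markers and pathways were chosen with earlier results of these data known. Genes named beside these 10 were drawn from the 3 highest genes of each list, its genes past 4-fold whose mean reached 10 CPM in 1 group, the direct neighbours of Ighm, C1qb and Cd96, and the 5 genes most like each of these, of which some are not reported here. Genes named beyond this rule (other defining markers, the short genes before Ighm, Otof as a scale, and C2, Csf1r, H2-DMb1, Erap1, Ifi35, Usp18, Tap1 and Tap2) were chosen after their values were seen. Alternatives used edgeR 4.0.16 for TMM factors and DESeq2 1.42.0 for size factors, R 4.3.3, Python 3.11.15, numpy 2.4.6, scipy 1.17.1 and pandas 2.3.3.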

Additional observations from a re-analysis of the deposited data

How the results depend on the processing

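No paired analysis was possible because no test was run and the cell numbers name no mouse. The SD over cells exceeded most group levels of the 10 genes, so that it says nothing about their stability, and the levels in both sets of totals stand beside the results. In P14_iOHCs 1212 genes were over 4-fold higher and 705 lower than in P14_WT IHCs, and in P30_WT IHCs 351 and 426. At a 2-fold limit these counts were 2596, 1782, 1289 and 1413, and with no filter on counts 5187, 3977, 3278 and 3909. With at least 10 counts in 25% of the cells of either group, 423 genes were lower in P14_iOHCs, and 117 higher and 199 lower at P30. Medians of single-cell CPM gave 1736 lower in P14_iOHCs, and 615 higher and 1997 lower at P30. The lower set of totals gave 359 higher in P14_iOHCs and 231 higher at P30. DESeq2 size factors shifted the median log2 ratio at P30 by 0.28, and medians of single-cell CPM shifted it by -0.17 in P14_iOHCs and -0.34 at P30. In the lower set it shifted by -0.11 in P14_iOHCs.

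Of the 10 genes, 3 were over 4-fold higher in P14_iOHCs, but 1 (Ighm) in the lower set. There B2m was counted in 6 P14_iOHCs and 0 P14_WT IHCs, and H2-K1 in 4 and 1. These 2 genes thus had too few cells to be compared in the lower set. Lower in P14_iOHCs were 2, and 4 with no filter (C1qa and C1qc added). Lower at P30 were 2, against 1 (C1qb) by medians or by the stricter filter, 0 in the lower set and 5 with no filter. In the lower set C1qb was counted in 9 P14_WT IHCs and 0 P30_WT IHCs, and H2-D1 in 0 and 5, too few to be compared. H2-D1 at P30 turned to a log2 ratio of 7.65 in the lower set, where no P14_WT IHC had a count of it. Leaving out the highest cell of a group for a ratio, the supporting-cell sum without S100a1 and the split by the run of cell numbers were added after the data were seen, and H2-D1 passed 4-fold in P14_iOHCs without P14_WT IHC 23 (log2 ratio 2.25).

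Shares of cells moved out of their intervals in 43 of 150 values. With at least 10 counts, Ighm was in 87.0%, B2m in 52.2%, C1qb in 2.17%, and C1qa, C1qc and Ptprc in 0% of P14_iOHCs. In P14_WT IHCs B2m was then in 18.2%, H2-K1 in 12.7%, C1qa in 9.09%, C1qc in 7.27%, Cd74 in 1.82% and Ptprc in 0%, and in P30_WT IHCs H2-D1 was in 6.00% and Ptprc in 0%. With at least 5 counts, P14_WT IHCs had C1qa in 14.5%, C1qc in 10.9% and H2-K1 in 12.7%, P14_iOHCs had C1qb in 2.17% and C1qa, C1qc and Ptprc in 0%, and P30_WT IHCs had H2-D1 in 6.00% and Ptprc in 0%. Thinned to 4326416 counts a cell, C1qa in P14_iOHCs and Ptprc at P30 were at 0%. In the lower set, P14_WT IHCs had Cd96 in 100%, H2-K1 in 6.25% and C1qa, C1qc, Ptprc, B2m, H2-D1 and Cd74 in 0%. P14_iOHCs there had B2m in 50% and H2-K1 in 33.3%, and P30_WT IHCs had B2m in 34.8% and C1qb in 0%. In the upper set, Ighm was in 100% of P14_iOHCs, B2m in 48.7% of P14_WT IHCs, and at P30 Cd96 was in 100%, B2m in 7.41%, and Ptprc and Cd74 in 0%. The cause was not tested. Ptprc, with at most 8 counts in a cell, is at the limit of what this depth shows.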

Other observations

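Variable segments of T-cell receptor genes were counted in hair cells, chosen here after their values were seen. Trbv13-2 had a count in 50 of 55 P14_WT IHCs (mean 20.3 ± 19.9 CPM, SD over cells), 50 of 50 P30_WT IHCs (29.5 ± 22.5) and 24 of 46 P14_iOHCs (3.34 ± 7.32). Trbv12-2, its neighbour on the plus strand of chromosome 6, was in 39, 39 and 10 of these cells (22.9 ± 30.9, 21.8 ± 32.1 and 3.75 ± 11.3 CPM). Trbc1 had no count in any cell.

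Trdv4, a delta-chain variable segment on chromosome 14 that lies inside the gene Gm30275 on the other strand, was counted in 23 of 46 P14_iOHCs (15 ± 37.5 CPM) and in 1 cell of each IHC group. As the use of strand in counting is not stated, reads of Trdv4 and of Gm30275 cannot be told apart. Trdc, the constant part of that chain, was counted in 1 cell of each group.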
